A study of Homo sapiens with 6 samples.

Results

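The 77 genes described here encode the protein components of the cytosolic ribosome, the particle that translates nuclear-encoded mRNA. They were chosen by symbol alone, as the RPL and RPS genes of the standard numbering together with RPLP0, RPLP1, RPLP2 and RPSA, from the 60843 genes in the count table. The large (60S) subunit contributed 46 of them and the small (40S) subunit 31. Each had 1 row in the table, and all 77 passed the filter on low counts that left 16328 genes for testing. The symbol rule leaves out FAU, which encodes a ribosomal protein fused to a ubiquitin-like sequence, and the paralogs named with an L; these are described after the members.

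The libraries were RNA sequencing of BJ cells, an established line of human foreskin fibroblasts labelled wild type, with 2 libraries for each of 3 days and no stated derivation from separate cultures. At day 0 the cells were fibroblasts grown on coated dishes in DMEM with 10% fetal bovine serum. From then until day 2 they were in a neuronal induction medium with 10 µM forskolin, an activator of adenylyl cyclase that raises cyclic AMP, and from day 2 to day 5 in a neuronal maturation medium with 10 µM forskolin. The day 2 and day 5 libraries carry the label FiNs and are described as induced neurons. No library kept the day 0 medium for 2 or 5 days, so time in culture, the change of medium and forskolin cannot be told apart in any comparison below.

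Library totals ran from 17605858 to 27953926 counts, with the 2 day 5 libraries the shallowest. Levels are in CPM, counts relative to the library total, scaled by trimmed mean of M-values (TMM) factors. Of 15 neuronal markers, 7 passed the count filter, STMN2 and ELAVL4 had 0 counts in all 6 libraries (3 counts would be at most 0.17 CPM), and the summed level of the list was 262.9 and 271.3 CPM at day 0, 161.6 and 167.7 at day 2, then 114.5 and 118.6 at day 5. In each of the comparisons with day 0, 1 of the 7 was called higher and 4 lower, so the libraries labelled as induced neurons held less of these markers in sum than the fibroblasts. All 15 fibroblast markers were detected, with sums of 27010 to 27470 CPM at day 0, 25860 to 26180 at day 2 and 38010 to 38500 at day 5. Of these 15, 7 were higher and 7 lower at day 2, then 6 higher and 9 lower at day 5 (median log2 fold change -0.11, from -4.06 to 2.98), so the larger day 5 sum was not shared by most of them. Calls in this and later lists are read against those over all genes tested, 33.4% in each direction at day 2, then 35.8% higher and 34.1% lower at day 5.

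A ribosome holds one copy of nearly every ribosomal protein, so cells make these proteins in matched amounts, and a failure to match them is known to set free RPL5 and RPL11, which bind MDM2. Their mRNAs are short, abundant and long-lived, and most begin with a 5′ terminal oligopyrimidine (TOP) tract, a cytosine at the cap followed by an uninterrupted run of pyrimidines. Through that tract mTOR signalling and the RNA-binding protein LARP1 control their translation and stability. Growing fibroblasts devote much of their RNA polymerase I, II and III activity to ribosome production, and serum is a known stimulus of it.

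The start regions of 10 members are shown because most members share this tract. They were picked with the values known, as examples of members that stayed high and members near the day 0 level at day 5, and do not hold every member of either kind. Promoter entries were found in RefSeq (GRCh38.p14) for 62 of the 77 genes. Each line gives 30 bases before the annotated start and 20 from it, 5′ to 3′ on the gene's strand, with capitals marking a cytosine at the annotated start and the pyrimidines that follow it without a break.
RPL36A (chrX:101390981-101391030, plus strand): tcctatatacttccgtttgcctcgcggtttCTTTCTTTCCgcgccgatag
RPS6 (chr9:19380217-19380266, minus strand): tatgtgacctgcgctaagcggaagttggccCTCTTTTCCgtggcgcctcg
RPS16 (chr19:39435930-39435979, minus strand): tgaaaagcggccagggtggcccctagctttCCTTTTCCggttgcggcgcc
RPL13A (chr19:49487578-49487627, plus strand): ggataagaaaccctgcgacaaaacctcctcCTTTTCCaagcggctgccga
RPLP2 (chr11:809937-809986, plus strand): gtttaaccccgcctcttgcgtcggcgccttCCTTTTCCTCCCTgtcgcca
RPS24 (chr10:78033833-78033882, plus strand): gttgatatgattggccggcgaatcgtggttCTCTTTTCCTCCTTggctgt
RPSA (chr3:39406690-39406739, plus strand): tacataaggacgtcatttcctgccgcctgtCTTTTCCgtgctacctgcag
RPS7 (chr2:3575230-3575279, plus strand): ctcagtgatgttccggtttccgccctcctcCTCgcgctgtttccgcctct
RPL10 (chrX:154398035-154398084, plus strand): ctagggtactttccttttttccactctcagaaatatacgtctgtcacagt
RPS4X (chrX:72277229-72277278, minus strand): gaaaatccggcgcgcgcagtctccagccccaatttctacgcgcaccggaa
A run of at least 5 bases, a C at the start and at least 4 further pyrimidines, was present at the annotated start of 42 of the 62 matched members (67.7%) and of 4.04% of all 27305 promoters in the table. RPL10 and RPS4X lack it at the start RefSeq gives, which need not be the start used in these cells.

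The upstream 250 bases are shown for RPS6, which at day 2 rose more than every member but RPL36A, and for RPSA, the only member below its day 0 level at day 5 with TMM scaling. Capitals mark the letters CCGGAA (the core bound by ETS family factors), GGGCGG (the GC box bound by SP1) and TGACGTC (a cyclic AMP response element, CRE), found on either strand.
RPS6 (chr9:19380237-19380486, minus strand): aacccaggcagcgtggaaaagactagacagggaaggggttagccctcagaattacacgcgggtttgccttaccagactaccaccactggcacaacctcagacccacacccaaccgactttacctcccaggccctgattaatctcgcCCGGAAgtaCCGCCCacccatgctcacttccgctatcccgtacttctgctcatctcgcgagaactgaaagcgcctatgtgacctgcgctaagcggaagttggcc
RPSA (chr3:39406470-39406719, plus strand): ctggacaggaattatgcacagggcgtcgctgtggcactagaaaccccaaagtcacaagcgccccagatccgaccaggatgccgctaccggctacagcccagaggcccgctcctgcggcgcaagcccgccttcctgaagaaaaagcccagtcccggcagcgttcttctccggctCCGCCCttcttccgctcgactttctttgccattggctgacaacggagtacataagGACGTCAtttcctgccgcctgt
In the full windows of 300 bases (250 before the start and 50 from it), CCGGAA occurred in 33 of the 62 members (53.2%, against 17.6% of all promoters), GGGCGG in 34 (54.8% against 44.6%) and TGACGTC in 6 (9.68% against 3.63%). The 6 genes with TGACGTC were RPL3, RPL13, RPL18, RPLP2, RPS28 and RPSA. A match is a string of letters and not a shown binding site.

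The members' summed counts made up 3.28% and 3.24% of all named-gene counts in the day 0 libraries, 4.84% and 4.8% in the day 2 libraries, then 4.18% and 4.14% in the day 5 libraries. The 2 libraries of a day lay close together and the days did not overlap. IGFBP5, which encodes a secreted binder of insulin-like growth factors, took 10.7% of the counts of each day 5 library and 0.355 to 0.38% of the others. With IGFBP5 taken out of the totals the day 5 shares were 4.68% and 4.64%. Those of day 2 were then 4.86% and 4.82%, and those of day 0 were 3.29% and 3.26%. Large subunit genes contributed 63.92 to 64.5% of the members' counts in all 6 libraries. In bulk RNA, a larger share of cells with high levels and more of these transcripts per cell cannot be told apart.

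**Figure D1:**
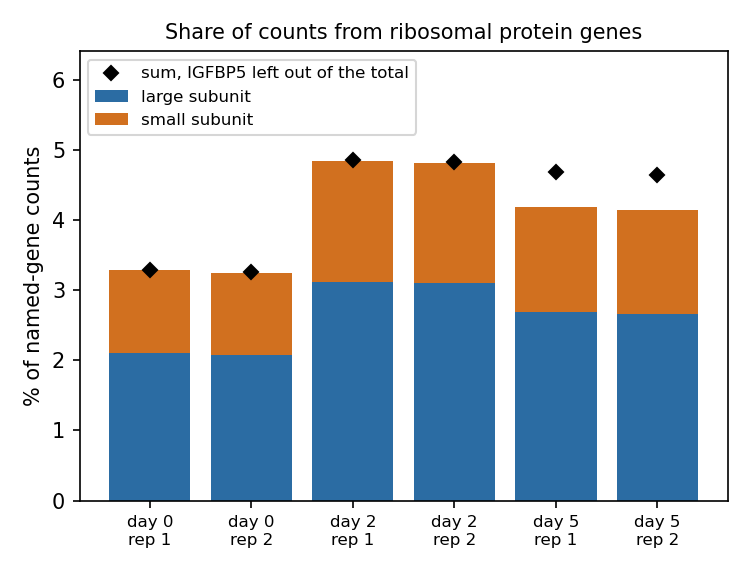
Percent of named-gene counts from ribosomal protein genes in each library (bars, large subunit below and small subunit above), with diamonds giving the sum when IGFBP5 is left out of the total. The day 2 bars reach 4.84 and 4.8%, the day 5 bars 4.18 and 4.14%, and the day 0 bars 3.28 and 3.24%.

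Within a library, members spanned from 62.7 to 1167 CPM at day 0, with RPL36A lowest and RPL13A highest. Median levels were 337 and 338 CPM at day 0, 581 and 577 at day 2, then 491 and 489 at day 5. The highest mean levels at day 0 belonged to RPL13A, RPL3, RPS2, RPLP0, RPL41 and RPL4, and the lowest to RPL36A, RPS29 and RPS21. Per kilobase of a CCDS transcript, a scale that depends on the transcript chosen, RPL41 (469 bases) led at day 0 with 1733 CPM per kilobase, followed by RPLP1 with 1119. The coefficient of variation between the 2 libraries of a day had a median over members of 0.965% at day 0, 1.18% at day 2 and 1.42% at day 5, and its highest value was 7.7%, for RPS27A at day 5.

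At day 2 every ribosomal protein gene was higher than at day 0. The test called 77 of 77 members higher and 0 lower, where 33.4% of all genes tested were called higher and 66.8% in either direction (edgeR quasi-likelihood test, Benjamini-Hochberg adjusted p under 0.05 over 16328 genes). The median log2 fold change of the members was 0.70, a 1.63-fold rise, against a median of 0.0031 over all genes tested. Changes ran from 1.29-fold (RPS19) to 2.43-fold (RPL36A), 60 of the 77 were at least 1.5-fold, and 65 passed a test against a log2 change of 0.5, where 17.9% of all genes did. Since separate cultures are not stated, all p-values reflect only how the libraries of a day differ, which can be technical variation.

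**Figure D2:**
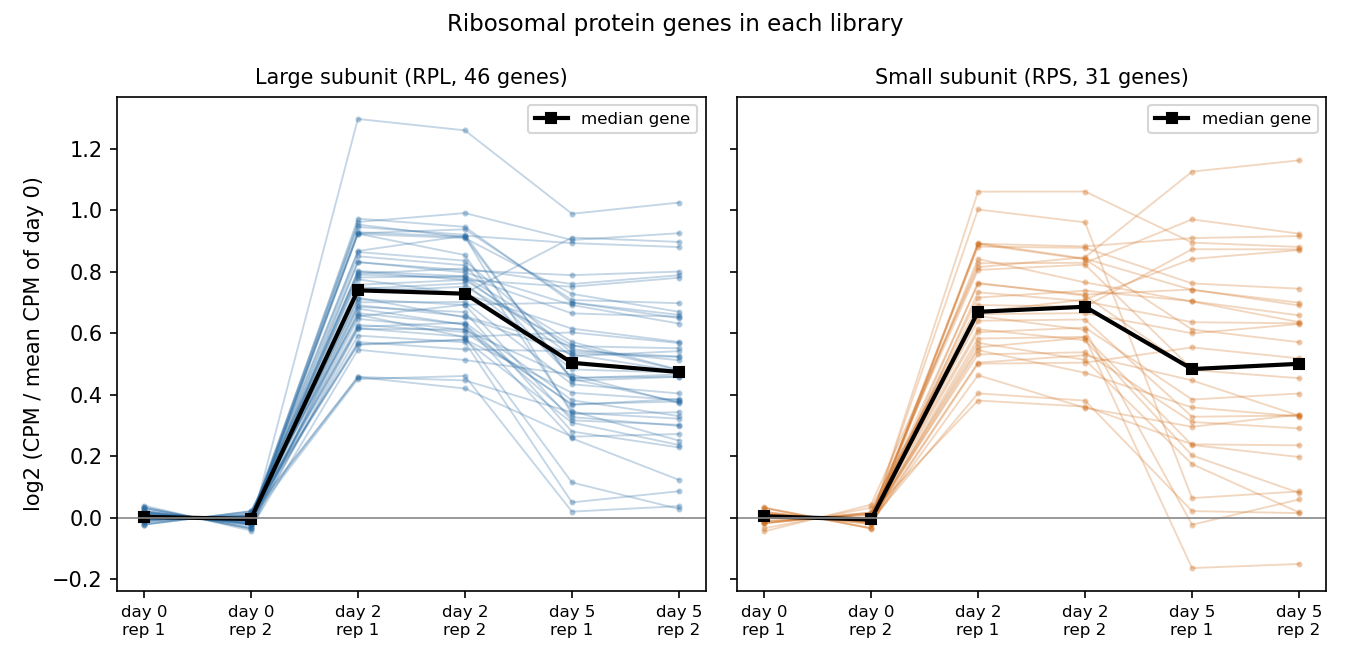
The log2 ratio of each gene's CPM to its day 0 mean in each of the 6 libraries, for 46 large subunit genes (left) and 31 small subunit genes (right), with the median gene in black. All lines lie above 0 at day 2 and fan out at day 5, where RPSA falls below 0 and RPS24 lies just below it in a single library.

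RPL36A, a component of the large subunit near the exit site for transfer RNA (chrX:101390824-101396154 in GENCODE 29), was at 65.2 and 62.7 CPM at day 0, 157 and 153 at day 2, then 127 and 130 at day 5. Its levels on the 3 days did not overlap, and its rise at day 2 was the largest of the 77 (log2 fold change 1.28 ± 0.04 SE). RPS6, the small subunit protein phosphorylated by S6 kinase downstream of mTOR, was at 548 and 541 CPM, then 1136 in both day 2 libraries, then 1013 and 1003. Its day 2 rise was 1.06 ± 0.02, a 2.09-fold change, and RPS6 and RPL36A were the 2 members at or above 2-fold. RPL3, which reaches towards the peptidyl transferase centre, was at 1002 and 999 CPM at day 0, 1949 and 1988 at day 2, then 1872 and 1900 at day 5. RPS7 rose by as much as RPL3, from 365 and 363 CPM to 730 and 709 (log2 fold change 0.98 ± 0.02 for each).

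The smallest day 2 rises were in small subunit genes. RPS19, a protein of the head of the small subunit and the gene most often mutated in Diamond-Blackfan anaemia, was at 383 and 392 CPM at day 0, 505 and 498 at day 2, then 457 and 456 at day 5. RPS15, a protein of the subunit head, was at 301 and 298 CPM at day 0 and at 397 and 390 at day 2. RPS26, which lines the mRNA exit channel, went from 112 and 109 CPM to 153 and 142. These rises were 0.37 ± 0.02, 0.39 ± 0.02 and 0.41 ± 0.04 on the log2 scale, and the day 0 and day 2 libraries did not overlap for any of them. RPL27 and RPL35A had the smallest rises of the large subunit, 0.44 ± 0.02 and 0.45 ± 0.02.

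At day 5 most members were still above the day 0 level, and the members had spread apart. Of the 77, 72 were called higher and 1 lower than at day 0, against 35.8% and 34.1% of all genes tested (69.8% in either direction), and 4 were not called. The median log2 fold change was 0.49 (1.41-fold), and the SD of the log2 fold change over the members was 0.267, compared with 0.168 at day 2. Against a log2 change of 0.5, 30 members were higher and 0 lower, beside 20.2% and 19.7% of all genes. The day 2 and day 5 comparisons share the day 0 libraries, so the change between them was taken from the direct comparison further on.

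Small subunit gene RPS16 (chr19:39433207-39435948) had the largest day 5 rise. Its level was 241 and 256 CPM at day 0, 437 and 447 at day 2, then 542 and 556 at day 5, a 2.21-fold change from day 0 (log2 fold change 1.14 ± 0.03). RPL36A followed at 1.01 ± 0.04, then RPS4X, the X-linked copy of a small subunit gene, at 0.95 ± 0.02. RPS4X was at 334 and 339 CPM at day 0, 598 and 599 at day 2, then 660 and 639 at day 5. RPL3 and RPS3A, a small subunit protein, each rose by 0.91 ± 0.02. RPL13A (chr19:49487554-49492308), the most abundant member on the CPM scale at day 0 and day 5, went from 1167 and 1158 CPM to 1955 and 1928 and then to 2186 and 2164.

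The member below its day 0 level was RPSA, which encodes the protein also known as the 37/67 kDa laminin receptor and sits near the mRNA exit channel (chr3:39406689-39412542). RPSA was at 637 and 635 CPM at day 0, 934 and 955 at day 2, then 568 and 573 at day 5. The levels of the 3 days did not overlap, and the day 5 change from day 0 was -0.16 ± 0.02 on the log2 scale (0.897-fold, adjusted p = 3.71e-06 in edgeR's quasi-likelihood test). Members not called at day 5 were RPS15 (304 and 303 CPM, log2 fold change 0.02 ± 0.03), RPS24 (357 and 378 CPM, 0.02 ± 0.03), RPL35 (330 and 334 CPM, 0.03 ± 0.02) and RPL23A (195 and 184 CPM, 0.07 ± 0.04). Each of these 4 had risen at day 2, RPS24 to 572 and 554 CPM from 364 and 361, and RPL23A to 285 and 271 from 177 and 183.

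Several of the smallest day 5 calls depended on how libraries were scaled. RPLP2 (0.07 ± 0.03), RPS7 (0.08 ± 0.02), RPS27A (0.10 ± 0.04), RPS21 (0.14 ± 0.04) and RPL38 (0.19 ± 0.04) were called higher with TMM factors, and each turned negative when libraries were scaled by their totals (-0.14, -0.13, -0.11, -0.06 and -0.01). The calls for RPLP2, RPS7 and RPS27A also ended with DESeq2, RLE size factors or IGFBP5 left out, and that for RPS21 with DESeq2. Scaling by library totals moved the median of all genes to -0.18 at day 2 and -0.16 at day 5. Under it 26% of all genes were called higher and 42.3% lower at day 2, against 33.4% each with TMM, and 27% and 42.3% at day 5. The members' counts under it were 77 higher and 0 lower at day 2, then 63 higher and 8 lower at day 5. Their median log2 fold change under it was smaller, 0.52 at day 2 and 0.29 at day 5, against 0.70 and 0.49 with TMM.

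**Figure D3:**
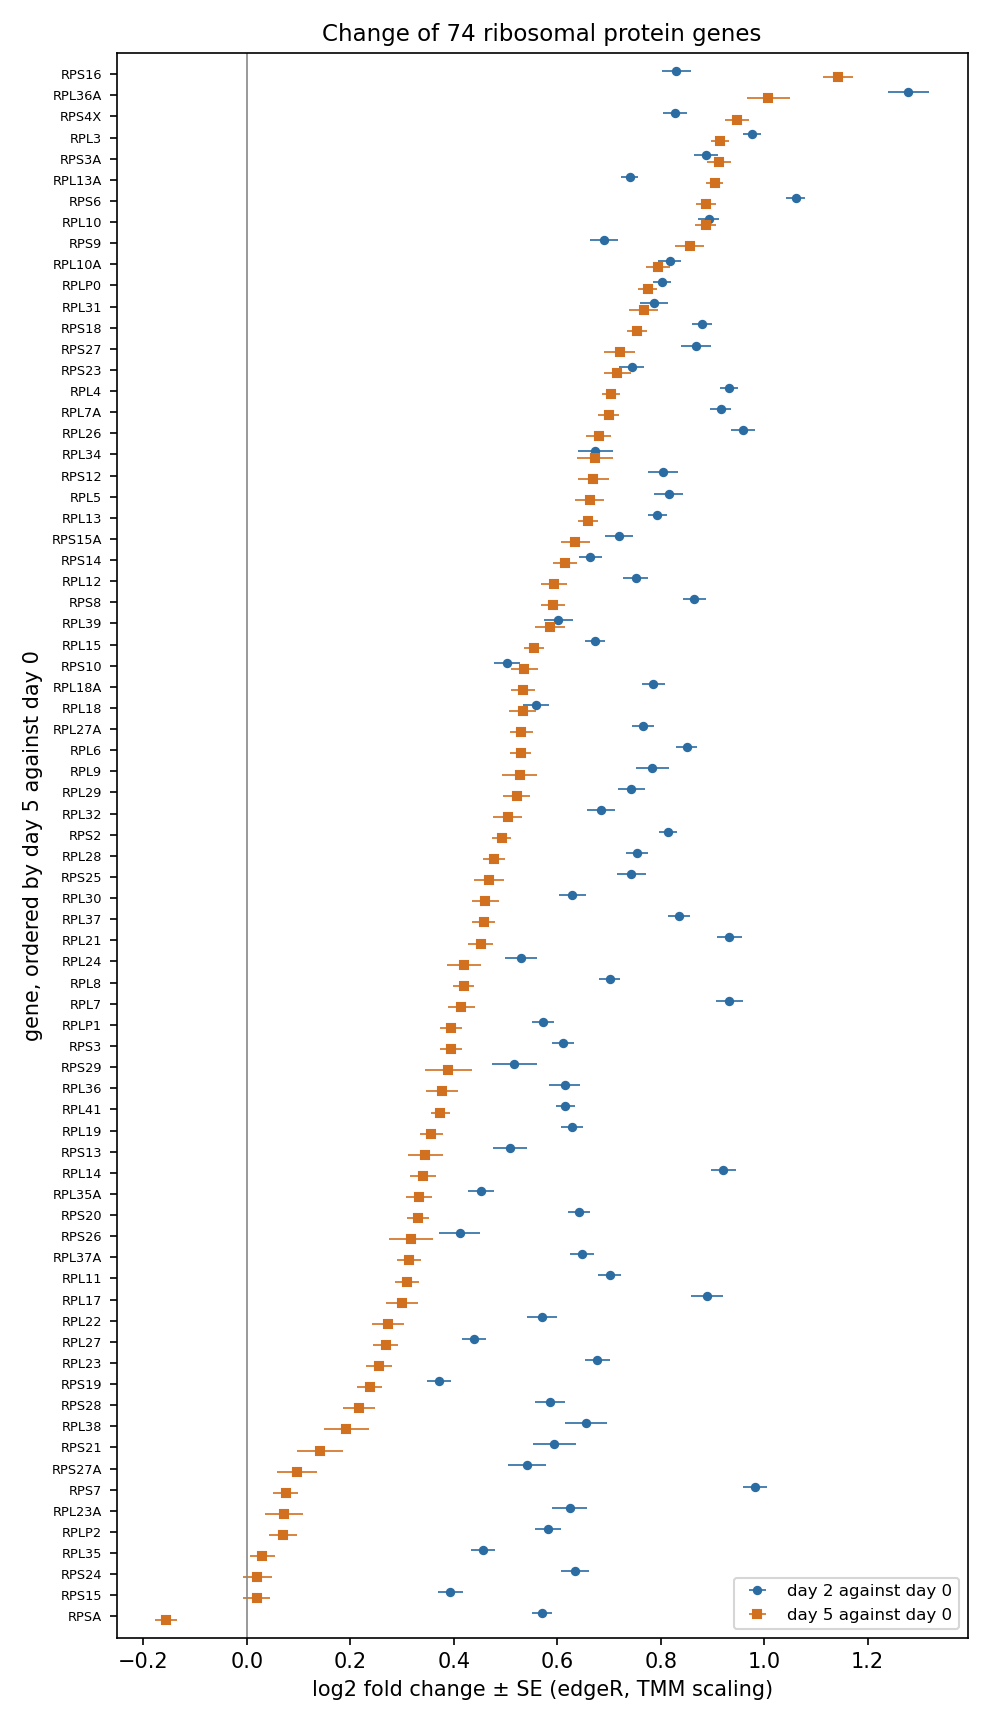
Log2 fold change ± SE of 74 of the 77 genes at day 2 (blue circles) and day 5 (orange squares) against day 0, ordered by the day 5 value. The day 2 values lie between 0.37 and 1.28, while the day 5 values run from -0.16 (RPSA) to 1.14 (RPS16).

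Compared directly, day 5 was lower than day 2 for most members. The test called 59 of 77 lower and 5 higher, where 33.7% and 32.1% of all genes tested were called lower and higher (65.8% in either direction), and 13 were not called. The median log2 fold change was -0.22 against 0.0066 over all genes. The largest fall was in RPS7, a small subunit protein (chr2:3575205-3580920), which went from 730 and 709 CPM at day 2 to 381 and 387 at day 5, near its day 0 level of 365 and 363. That change was -0.91 ± 0.02, or 0.534-fold. RPSA fell by 0.73 ± 0.02, RPS24 by 0.61 ± 0.03, RPL17 by 0.59 ± 0.03 and RPL14 by 0.58 ± 0.02. RPL17, a protein at the rim of the exit tunnel, was at 348 and 338 CPM at day 0, 651 and 620 at day 2, then 436 and 408 at day 5.

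The 5 members called higher at day 5 than at day 2 included RPS16 (0.31 ± 0.03), RPS9 (0.17 ± 0.03), RPL13A (0.16 ± 0.02) and RPS4X (0.12 ± 0.02). These 5 rose at each step. RPS9, a small subunit protein at the mRNA entry side, was at 279 and 292 CPM at day 0, 455 and 467 at day 2, then 512 and 522 at day 5. None of the 5 passed the test against a log2 change of 0.5, which 15.6% of all genes passed in this direction, while 5 members passed it as lower (17.9% of all genes). The commonest course among the members, shared by 54 of them, was higher at day 2, above day 0 but below day 2 at day 5. How many of all genes tested took that course was not counted. The 13 members not called between day 2 and day 5 included RPL10, RPL10A, RPL18, RPL31, RPL34, RPL39, RPLP0, RPS10, RPS14, RPS23, RPS26 and RPS3A.

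**Figure D4:**
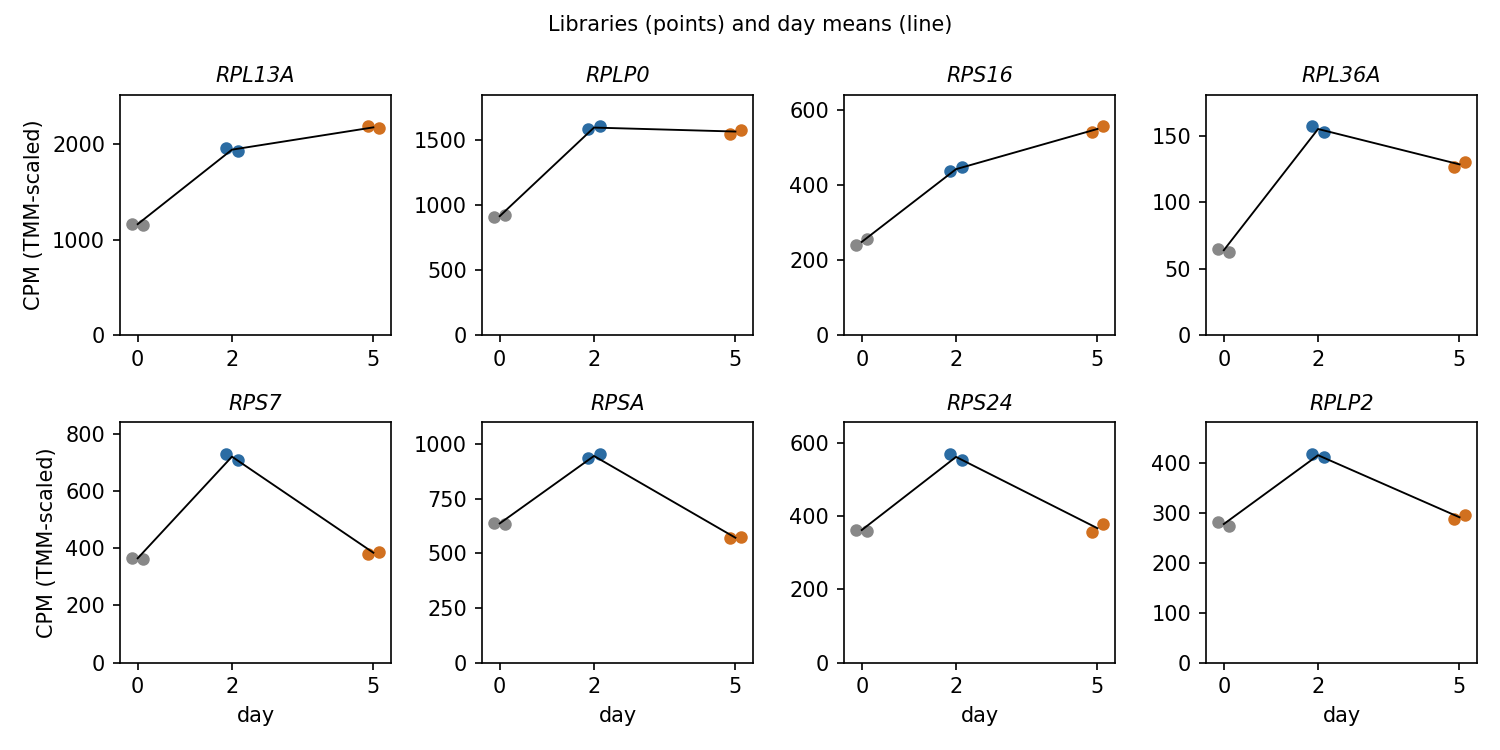
CPM (TMM-scaled) of 8 ribosomal protein genes by day, with a point for each library and a line through the day means. RPS16 and RPL13A climb at each step, RPLP0 and RPL36A stay above day 0, and RPS7, RPSA, RPS24 and RPLP2 return close to or below the day 0 level.

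Members of one structure differed in how far they moved. The stalk of the large subunit, which recruits the translation factors that hydrolyse GTP, is built from RPLP0, RPLP1 and RPLP2. RPLP0, its base, was at 905 and 924 CPM at day 0, 1585 and 1604 at day 2, then 1549 and 1580 at day 5. RPLP1 went from 496 and 499 CPM to 736 and 744 and then 660 and 649, and RPLP2 from 281 and 274 to 419 and 413 and then 288 and 295. Day 5 against day 0 thus gave log2 fold changes of 0.77 ± 0.02, 0.40 ± 0.02 and 0.07 ± 0.03 for the 3 stalk proteins. RPL5 and RPL11, which form a particle with 5S ribosomal RNA, rose by 0.82 ± 0.03 and 0.70 ± 0.02 at day 2 and by 0.66 ± 0.03 and 0.31 ± 0.02 at day 5. RPL5 was at 372 and 351, 644 and 629, and 584 and 560 CPM on the 3 days, and RPL11 at 360 and 362, 591 and 583, and 450 and 445 CPM.

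On the inner face of the large subunit, near the peptidyl transferase centre or the path of transfer RNA, 6 members (RPL3, RPL8, RPL10, RPL10A, RPL23 and RPL36A) had a median log2 fold change of 0.86 at day 2 and 0.84 at day 5, beside 0.70 and 0.49 over all members. RPL10, which completes the large subunit late in its assembly, was at 549 and 556 CPM at day 0, 1008 and 1043 at day 2, then 1026 and 1017 at day 5. RPL23 was the lowest of the 6 at day 5 (0.26 ± 0.02). The 9 members that line the exit tunnel for the nascent chain or lie around its mouth had medians of 0.63 and 0.36. Within that group RPL31 had changes of 0.79 ± 0.03 and 0.77 ± 0.03, and RPL35 of 0.46 ± 0.02 and 0.03 ± 0.02. RPL39, a small basic protein of the tunnel, was at 180 and 181 CPM at day 0, 276 and 271 at day 2, then 274 and 267 at day 5. RPL22, an RNA-binding protein on the outer face of the large subunit, was at 223 and 230, 334 and 338, and 281 and 267 CPM.

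In the small subunit, a list of 7 members of the mRNA entry and exit channel had medians of 0.59 at day 2 and 0.32 at day 5. RPS2, RPS3, RPS14, RPS26, RPS28 and RPSA were among the 7. RPS9, at the entry side too, was not on that list, and it rose at each step. RPS2, at the entry side, went from 976 and 999.9 CPM to 1727 and 1748 and then 1381 and 1398. The 7 members of the head had medians of 0.52 and 0.39, with RPS18 highest (0.88 ± 0.02 and 0.75 ± 0.02). RPS27, a zinc-binding protein of the small subunit, was at 190 and 185 CPM at day 0, 349 and 337 at day 2, then 314 and 305 at day 5. RPS27A, made as a fusion with ubiquitin, was at 262 and 258, 386 and 372, and 294 and 263 CPM, so that its lower day 5 library lay next to the upper day 0 library. RPL41, the shortest ribosomal protein, was at 812 and 814 CPM at day 0, 1256 and 1236 at day 2, then 1050 and 1057 at day 5.

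Over whole subunits the medians against day 0 were alike, and those of day 5 against day 2 lay further apart. At day 2 the large subunit genes had a median log2 fold change of 0.74 and the small subunit genes 0.69, at day 5 both had 0.49, and between day 2 and day 5 they had -0.24 and -0.15. All 46 large and all 31 small subunit genes were called higher at day 2. The 4 X-linked members (RPL10, RPL36A, RPL39 and RPS4X) had medians of 0.86 at day 2 and 0.92 at day 5. The 19 members listed for Diamond-Blackfan anaemia, an inherited failure of red cell production, had medians of 0.63 and 0.39.

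To show which members left the common course, the fit was repeated with each library scaled to the summed counts of the 77 genes. A change is then relative to that sum, the shared level, in which abundant members weigh most. The members' median log2 fold change was -0.05 at day 2, -0.06 at day 5 against day 0 and -0.02 between day 2 and day 5. In that fit 25 members were above and 36 below the shared level at day 2, where 10.6% of all genes tested were above and 66.1% below. At day 5 against day 0, 26 were above and 39 below (16.7% and 57% of all genes), and between day 2 and day 5 26 were above and 31 below (41.7% and 25.9%). Most departures were small. Against a log2 departure of 0.3, a limit chosen after these values were seen, 3 members passed at day 2 (RPL36A above, RPS15 and RPS19 below), 17 at day 5 against day 0, and 10 between day 2 and day 5. The corresponding shares of all genes were 7.54% above and 58.6% below, 12.5% and 48.8%, and 31.2% and 18.4%.

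The 17 members at day 5 fell on both sides. RPS16 (0.59 ± 0.03), RPL36A (0.45 ± 0.04), RPS4X (0.39 ± 0.02), RPL3, RPS3A, RPL13A and RPS6 stood above the set. Below it were RPSA (-0.71 ± 0.02), RPS15 and RPS24 (-0.54 ± 0.03 each), RPL35 (-0.53 ± 0.03), RPLP2 (-0.49 ± 0.03), RPL23A, RPS7, RPS27A, RPS21 and RPL38. Between day 2 and day 5 the members past the limit included RPS7 (-0.71 ± 0.02), RPSA (-0.53 ± 0.02), RPS24, RPL17, RPL14 and RPL23A below, and RPS16 (0.51 ± 0.03), RPS9 and RPL13A above. RPS7 was thus above the set at day 2 (0.23 ± 0.02) and below it at day 5 (-0.48 ± 0.03).

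Members with and without a pyrimidine run at the annotated start had similar medians, and the run length there had almost no relation to the change. The split rests on a single annotated start per gene. Some members without the run have pyrimidines a few bases further on, as RPL10A and RPL9 do. It therefore cannot show whether a tract at the start used in these cells goes with the change. At day 2 the median log2 fold changes of the 42 members with such a run and the 20 without were 0.68 and 0.74. At day 5 they were 0.53 and 0.45. Long tracts occurred with small and with large day 5 changes, as in RPS24 (14 bases, 0.02 ± 0.03) and RPL39 (19 bases, 0.59 ± 0.03). The same held for members without one, such as RPS15 (0.02 ± 0.03) and RPS4X (0.95 ± 0.02). These 4 were chosen as examples after their values were seen. For the 33 members with CCGGAA and the 29 without, the medians were 0.74 and 0.62 at day 2 and 0.54 and 0.38 at day 5. With and without TGACGTC (6 and 56 members) they were 0.58 and 0.72 at day 2, then 0.38 and 0.51 at day 5. Across the 77 members, which are not independent and share library depth, the log2 fold change had a Pearson correlation with the log2 mean CPM of 0.35 at day 2 and 0.33 at day 5. Across the 62 with a promoter entry its correlation with tract length was 0 and 0.05.

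The genes related to the members by sequence or fusion did not all take the same course. FAU was at 155 and 153 CPM, then 175 and 183, then 157 and 159, with a log2 fold change of 0.22 ± 0.03 at day 2 and 0.04 ± 0.04 at day 5. RACK1, a scaffold protein bound to the small subunit, rose by 0.48 ± 0.02 and 0.40 ± 0.02. The table holds 8 paralogs, and 6 of them were tested. RPL36AL (93.7 and 91.2, 133 and 127, and 55.7 and 60.1 CPM) and RPS27L (104 and 108, 154 and 150, and 101 and 94 CPM) rose at day 2 by 0.50 ± 0.04 and 0.52 ± 0.04, and both were lower than day 0 at day 5 (-0.67 ± 0.05 and -0.12 ± 0.04). RPL22L1 and RPL7L1 fell by 0.45 ± 0.08 and 0.25 ± 0.04 at day 2.

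Copies of these genes elsewhere in the genome bear on the counts. The table lists 1225 rows named as pseudogenes of the 77 members, of which 355 had any count and 37 were tested, and their counts came to 1.32 to 1.69% of the members' counts. The most abundant was RPL23AP42, at 147 and 153 CPM at day 0, 305 and 304 at day 2, then 199 in both day 5 libraries. It was above its parent RPL23A at day 2 (285 and 271 CPM) and at day 5 (195 and 184 CPM). RPL21P16 (90.1 and 90.4, 194 and 194, and 113 and 108 CPM) rose by 1.10 ± 0.04 at day 2 and fell by 0.82 ± 0.04 from day 2 to day 5. Its parent RPL21 (278 and 279, 537 and 528, and 380 and 383 CPM) rose by 0.93 ± 0.02 and fell by 0.48 ± 0.02, and the difference between the 2 was not tested. Adding the pseudogene rows to their parents left 77 members higher at day 2 and gave 73 higher and 1 lower at day 5, and RPL23A then passed the test at day 5 (0.11, adjusted p = 0.001 in edgeR's quasi-likelihood test). How reads that fit several copies were assigned is not given in the sources used here, so single members with close copies are uncertain.

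Most other mRNAs known to begin with a TOP tract were also higher at day 2. Of 20 such genes of translation, 18 were higher and 1 lower at day 2 (median 0.75 on the log2 scale), and 15 were higher and 3 lower at day 5 (median 0.37). Of all genes tested, 33.4% were higher at day 2 and 35.8% at day 5. EEF1A1, the elongation factor that delivers transfer RNA, was at 7001 and 6985 CPM at day 0, 13444 and 13350 at day 2, then 8828 and 8732 at day 5. EEF2, the translocation factor, was at 1914 and 1940, 3672 and 3709, and 3364 and 3404 CPM. PABPC1, the poly(A)-binding protein, and EIF4B, a helper of the eIF4A helicase, rose by 1.21 ± 0.03 and 1.20 ± 0.02 at day 2, and from day 2 to day 5 they fell by 0.77 ± 0.03 and 0.74 ± 0.02. The list included HNRNPA1, which was lower at both times. Translation initiation factors outside this list were split, with 11 higher and 11 lower of 25 at day 2 and 7 higher and 13 lower at day 5, where 34.1% of all genes were lower at day 5.

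Most genes of the machinery that builds ribosomes were lower than at day 0. Of 96 ribosome assembly genes, 68 were lower and 12 higher at day 2 (median -0.44), and 61 lower and 12 higher at day 5 (median -0.34), where 33.4% and 34.1% of all genes were lower at the 2 times. BOP1, a scaffold of large subunit assembly, had means over 2 libraries of 43.4, 14.7 and 22.9 CPM on the 3 days, and RSL24D1, which travels on the large subunit precursor, had means of 33.9, 95.1 and 56.3. The nucleolar proteins differed from one another. FBL, which methylates ribosomal RNA, was at 42.8 and 42.6 CPM at day 0, 44.4 and 43.4 at day 2, then 63.5 and 67 at day 5, NCL fell by 0.26 ± 0.03 from day 0 to day 5, and NPM1 was 0.42 ± 0.03 higher at day 2 and 0.46 ± 0.03 lower at day 5.

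RNA polymerase I transcribes the ribosomal RNA precursor. Of 21 genes of that polymerase and its factors, 12 were lower and 5 higher at day 2, then 7 lower and 4 higher at day 5. The share of all genes called lower was 33.4% and then 34.1%, so the day 5 count of lower genes was close to the background. POLR1A, the largest subunit, was at 79.7 and 83.4 CPM at day 0, 33.8 and 32.5 at day 2, then 71.9 and 75.9 at day 5. POLR1B, the second subunit, was at 14.1 and 13.9, 6.41 and 5.95, and 17.3 and 15.4 CPM. UBTF, which activates the ribosomal RNA genes, was at 91.6 and 91.3 CPM, then 49.8 and 50.9, then 132 and 140. All 3 were thus lowest at day 2, when every ribosomal protein mRNA was above its day 0 level, and the day 2 libraries did not overlap the others.

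**Figure D5:**
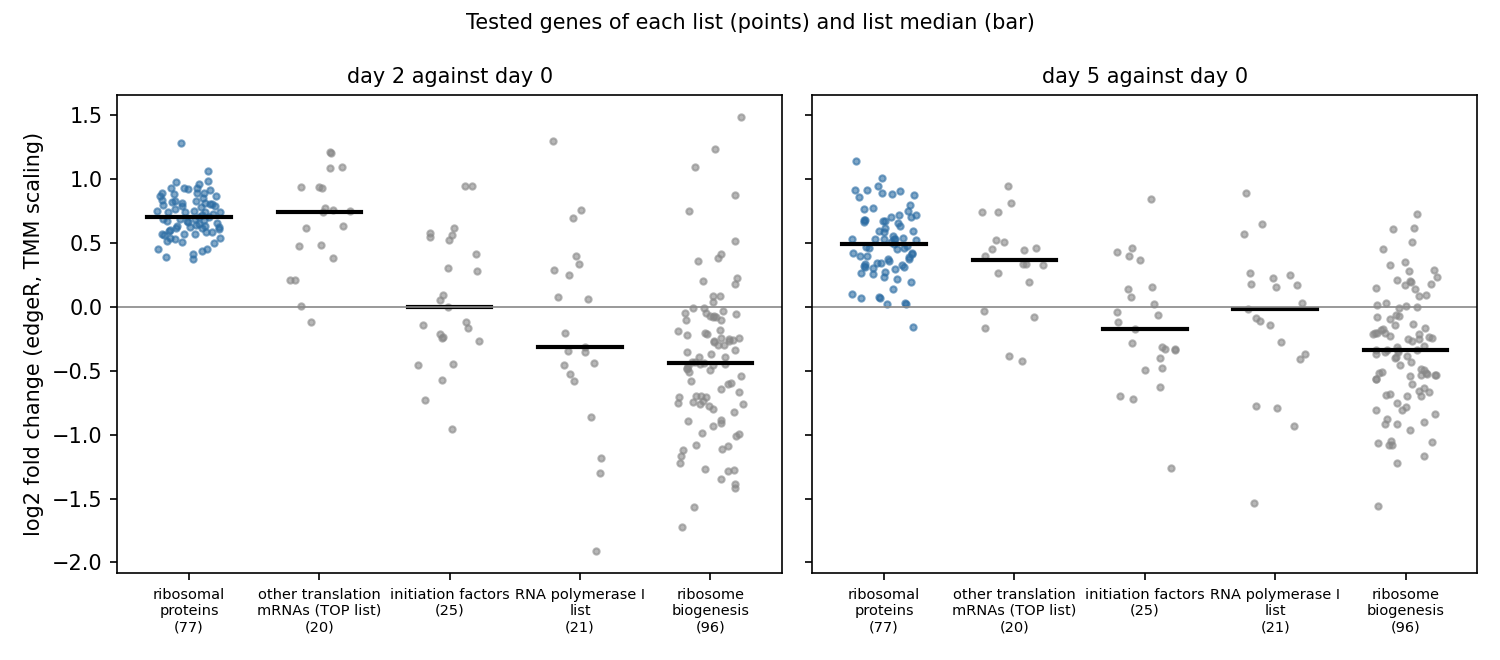
Log2 fold change of each tested gene (points) and the median (bar) for ribosomal protein genes, other TOP mRNAs, initiation factors, the RNA polymerase I list and ribosome assembly genes, at day 2 (left) and day 5 (right) against day 0. The medians at day 2 are 0.70, 0.75, -0.0046, -0.31 and -0.44.

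Genes that control ribosomal protein synthesis were mixed. Of 35 tested genes of mTOR, LARP and MYC control, 11 were higher and 16 lower at day 2, then 15 higher and 13 lower at day 5. The shares over all genes were 33.4% in each direction at day 2, then 35.8% higher and 34.1% lower at day 5. The 11 higher at day 2 and the 13 lower at day 5 were near those shares. The 16 lower at day 2 and the 15 higher at day 5 were somewhat above them, a difference that was not tested. LARP1, which binds TOP mRNAs, was at 267 CPM in both day 0 libraries, 190 and 193 at day 2, then 216 and 226 at day 5. MTOR was at 99.4 and 103, 77 and 83.4, and 103 and 108 CPM, a log2 fold change of -0.33 ± 0.05 at day 2. DDIT4, an inhibitor of mTOR signalling, was at 21.2 and 22.8 CPM at day 0, 24 and 24.8 at day 2, then 110 and 106 at day 5, and EIF4EBP1, a repressor of cap-dependent translation, rose by 0.45 ± 0.09 at day 5. MYC was at 15.8 and 16.2, 20.8 and 23.1, and 14.6 and 18.1 CPM, with a rise of 0.46 ± 0.10 at day 2 and 0.04 ± 0.11 at day 5. These are mRNA levels and give no activity of the pathway.

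Markers of dividing cells moved the other way from the ribosomal proteins. Of 16, 15 were lower and 1 (PCNA) higher at day 2 and again at day 5 (33.4% and 34.1% of all genes were lower), and their summed level was 303.3 and 290.7 CPM at day 0, 163.7 and 159.8 at day 2, then 201.7 and 196.8 at day 5. The part of the fall in dividing cells in the rise of the ribosomal protein share was not tested.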

How the data were processed

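The libraries were made from TRIzol RNA treated with DNase I, with an Illumina TruSeq RNA kit, per the labels' protocols. The authors deposited expected counts, which are estimates and can hold fractions, with no scaling between libraries. Of the values, 87.2% were exactly whole, and all were rounded to whole numbers. Per the submitters' processing notes, reads were placed on GRCh38. Aligner, counter, annotation and strandedness are not given in the sources used here, so a gene and an antisense or overlapping partner can share reads. The 172 genes without a name (0.0356 to 0.0475% of counts) were left out.

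All 6 libraries entered 1 fit by day with edgeR 4.0.16 under R 4.3.3. It used TMM factors, the filter filterByExpr with a minimum count of 10 and a total count of 15, the quasi-likelihood test with 3 residual degrees of freedom, and Benjamini-Hochberg adjustment over 16328 genes. A call is an adjusted p under 0.05. A second fit scaled libraries to the summed counts of the 77 genes. Alternatives included DESeq2 1.42.0, limma 3.58.1 (voom), other scalings and filters, and leaving out each library. The 2 libraries of a day differed by more than sampling noise (chi-square per gene of 2.312 to 2.429 over all genes and 2.663 to 3.716 over the members). Promoters came from RefSeq, gene positions from GENCODE 29 (GRCh38), and lengths from the shortest CCDS transcript.

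The named genes were the members with the highest and lowest levels, the largest and smallest changes in each comparison, those not called or called against the majority, the farthest from the set, fixed members of known structures, and fixed genes of the pathway with the largest changes of each list. The members and lists were chosen with earlier results of these data known. A few named items are not reported here.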

Additional observations from a re-analysis of the deposited data

Results flagged for a closer look

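RPLP0P2, a row annotated as a pseudogene of RPLP0 and not a member, was at 0.473 and 0.549 CPM at day 0, 1.17 and 0.706 at day 2, then 19.8 and 18.5 at day 5. Its log2 fold change at day 5 against day 0 was 5.21 ± 0.23, while RPLP0 itself changed by 0.77 ± 0.02. It stands out as a signal in a row the comparisons of members did not use, and 37 such rows were tested.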

How the results depend on the processing

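The count of 77 members higher at day 2 was the same under every alternative that tested for any change, and 65 with a test against a log2 change of 0.5. At day 5 against day 0, 63 to 73 members were higher, except for 30 with the test against 0.5, and 1 was lower except for 8 with library totals and 0 with the test against 0.5. Between day 2 and day 5 that test left 0 of the 5 higher. Members off the shared level dropped to 3, 17 and 10 with the test against 0.3, which was chosen after seeing the data. With pseudogene counts added, the shares of counts became 3.33, 3.3, 4.92, 4.88, 4.23 and 4.19% for the libraries in order of day. Without IGFBP5 the shares became 3.29, 3.26, 4.86, 4.82, 4.68 and 4.64% in the same order.

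With library totals, direction reversed at day 2 for EIF3G (-0.0936), RSL1D1 (-0.0037) and VIM (-0.1283), and at day 5 for RPS27A (-0.1086), RPS21 (-0.064), RPS7 (-0.1305), RPL38 (-0.0138), RPLP2 (-0.1366), EEF1D (-0.0114), EIF2S3 (-0.07), EIF3A (-0.0533), TCOF1 (-0.0566), TSC2 (-0.1103) and MXD4 (-0.0683). Relative to the set, RPL23A at day 2 became 0.002 with pseudogenes added, and RPS2 at day 5 became 0.0018 with a median-ratio scale. The cause was not tested beyond the scaling itself.

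With the replicate block, 77 members were higher at day 2, 72 at day 5, and 61 were lower between day 2 and day 5. Same-numbered libraries did not deviate together over all genes (correlations of -0.001, 0.002 and 0.008), while over the members the correlations were 0.396, 0.189 and 0.195. With 2 libraries a day and no label that ties the numbers to a shared culture, the numbers were not taken to pair the samples, and whether they do is not settled. Leaving out 1 library in turn gave 77 higher at day 2, 68 to 71 at day 5, and 56 to 60 lower between day 2 and day 5. At day 5 the calls of RPS27A and RPS21 ended without day 5 replicate 1 (0.0093 and 0.0725), those of RPS7 and RPLP2 without day 5 replicate 2 (0.0618 and 0.0482), and those of RPS27A, RPS7 and RPLP2 without either day 0 library. With 2 libraries a day, and shallower ones at day 5, differences near 0.1 on the log2 scale are the least certain.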

Other observations

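The subunits of eIF3, the factor that brings the small subunit to mRNA, did not move as a unit. They were looked at together after their values were seen. Of 13 subunits, 8 were higher and 3 lower at day 2 by edgeR's quasi-likelihood test, and 5 were higher and 6 lower at day 5. Of all genes tested, 33.4% were called in each direction at day 2, then 35.8% higher and 34.1% lower, so the day 5 counts were near the background. EIF3E (1.09), EIF3A (0.95), EIF3L (0.93), EIF3H (0.76) and EIF3F (0.75) had the largest log2 fold changes at day 2, while EIF3B (-0.57), EIF3C (-0.25) and EIF3J (-0.21) were lower. EIF3L had the largest value of the 13 at day 5 (0.94), with mean levels of 155, 296 and 299 CPM on the 3 days.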
